A study of Mus musculus with 6 samples.

Results

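Glycolysis, glucose transport and the pentose phosphate pathway were read from 35 genes, chosen by name, in 6 RNA sequencing libraries of mouse CD4+ T cells. All 35 were among the 21362 genes of the deposited tables, and 34 of them, all but Hk3, averaged 1 CPM or more, a level that 11516 genes of the table reached. CPM is the count per 1000000 counts of the scaled library total. The series set regulatory T cells given sorafenib, an oral inhibitor of several protein kinases, beside cells without it. The labels give each library a cell type and a running number but not its treatment, so no library was put in a group and no test was made. Strain, genotype, age, dose and duration are not in the labels, nor is it stated if separate mice or cultures gave them. Values in a series run from library 1 to library 6.

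Cells take up glucose through facilitative transporters, trap it as glucose 6-phosphate with a hexokinase and split it in glycolysis into pyruvate, which lactate dehydrogenase can turn into lactate for export. The pentose phosphate pathway branches off at glucose 6-phosphate and supplies NADPH and ribose for nucleotides. Activated T cells are known for rapid glycolysis, and regulatory T cells for relying on it less than effector T cells do.

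Total counts lay between 32435799 and 36316162 per library, and the floor of 3 counts between 0.0791 and 0.0966 CPM. The 8 T cell markers were all measured and summed to 2345 to 2832 CPM. All 5 regulatory T cell markers were measured too, although Foxp3, the factor that defines that lineage, stood only at 7.37 to 13.4 CPM. Summed markers stayed between 8.86 and 10.6 CPM for killer T and NK cells, 4.96 and 8.68 for B cells, 9.40 and 12.8 for myeloid cells, 3.99 and 6.93 for dendritic cells, 0.225 and 1.89 for neutrophils and 0.708 and 1.24 for erythroid cells. Those of stroma and endothelium summed to 29.2 to 44.5 CPM, mostly Pecam1, and 0 marker genes in the table were without a read in all libraries. In bulk RNA, fewer cells of a type and less RNA per cell cannot be told apart.

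The glycolytic chain was expressed at every step, and its genes differed far more from each other than between libraries. Between genes, levels are given as FPKM, which is per gene length and library total. Pgk1, phosphoglycerate kinase, which makes the first ATP of glycolysis, was highest with a median of 2131 FPKM over the libraries. Eno1, the ubiquitous enolase, followed with 1226 FPKM, Tpi1, triose phosphate isomerase, with 1109, and Pkm, the pyruvate kinase of most tissues, with 643. Gpi1, which turns glucose 6-phosphate into fructose 6-phosphate, had 590.0, Ldha, the lactate dehydrogenase subunit that predominates in muscle, 479, and Gapdh, glyceraldehyde 3-phosphate dehydrogenase, 369 FPKM. Pgam1, phosphoglycerate mutase, reached 325 FPKM. At the other end were Pfkfb4, a bifunctional enzyme that sets fructose 2,6-bisphosphate, with 1.91 FPKM, and Hk3, a hexokinase of myeloid cells, with 0.07598 FPKM. The length implied by count and FPKM was over 1.5 times the longest coding reference transcript for 5 of the 35 genes, namely Slc2a3, Pfkfb2, Ldha, Pkm and Eno3. Their FPKM are therefore lower than that transcript would give.

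**Figure D1:**
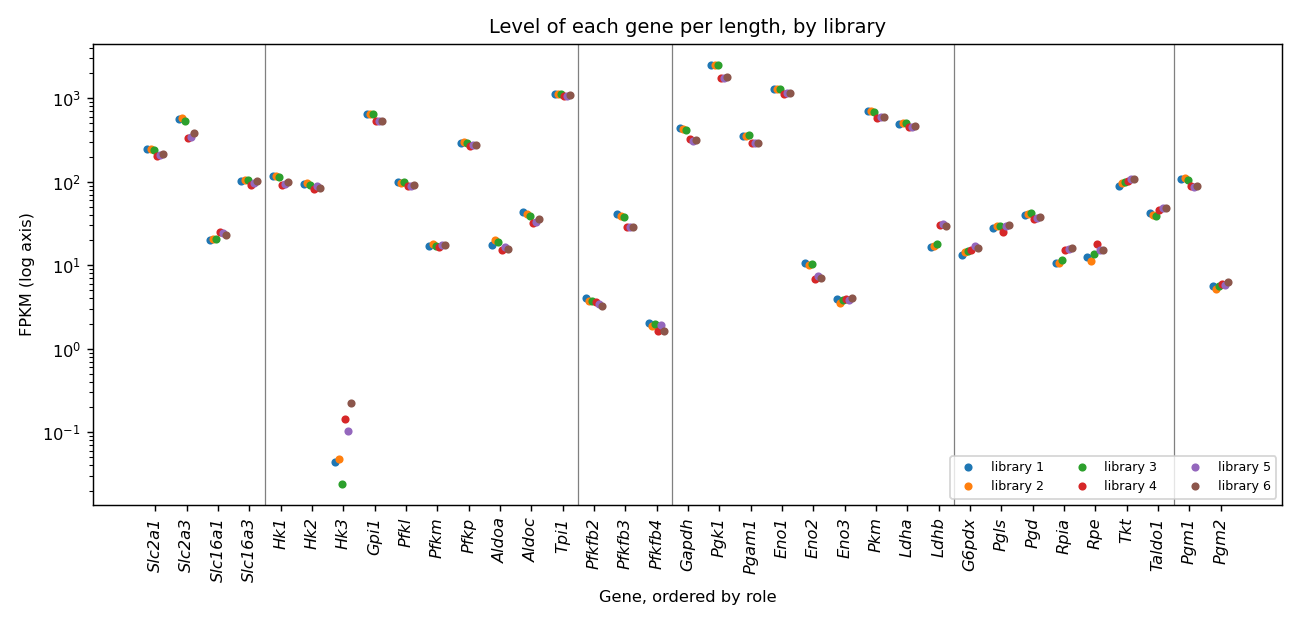
FPKM of each of the 35 genes on a log axis, 1 point per library, with genes arranged by role. Pgk1, Eno1 and Tpi1 lie highest, and the points of 1 gene lie close together beside the distance between genes. The pentose phosphate genes sit well below most enzymes of lower glycolysis, but Ldhb lies among them and Eno2 and Eno3 lie lower still.

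The aldolase step stood out from its neighbours. Aldoc, the aldolase first described in brain, and Aldoa, a second aldolase, had medians of 37.4 and 16.8 FPKM. The step before had 285 FPKM for Pfkp, and the step after 1109 FPKM for Tpi1. Of the 50-base windows of the Aldoa transcripts, 13.5% also occur in transcripts of other annotated genes, and Aldoart1, a retrotransposed aldolase gene, had only 4 to 6 reads per library. The cause of the low Aldoa level was not tested, and whether reads of Aldoa were lost in counting could not be checked. The level of the step, and the lead of Aldoc in it, are uncertain to that extent.

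Reads of all 35 genes together made up 2.897, 2.92, 2.87, 2.35, 2.39 and 2.43 percent of the counts. Libraries 1, 2 and 3 were high and libraries 4, 5 and 6 low, with no value of the first 3 inside the span of the others. The level of the list, the median over 34 genes of the deviation of log2 CPM from that gene's median, was 0.12, 0.14, 0.11, -0.18, -0.14 and -0.11, a range of 0.32 on the log2 scale. Proliferation markers, Mki67, Top2a, Ccnb1, Cdk1, Pcna and Mcm5, summed to 384, 411, 378, 783, 802 and 928 CPM, higher in libraries 4, 5 and 6. The regulatory T cell markers summed to 4201, 4140.0, 4095, 2683, 2724 and 2943 CPM, divided between libraries as glycolysis was and mostly made up of Il2ra and Ctla4, while Foxp3, with 7.37, 7.66, 7.86, 11.9, 13.4 and 11.2 CPM, had the reverse order. Mitochondrially encoded genes took 2.02, 1.90, 1.98, 2.45, 2.37 and 2.41 percent of counts. The part of any of these in the glycolytic levels was not tested.

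The spread of single genes was modest. Of the 34 measured genes, 6, or 17.6%, had a highest library at least 1.5-fold above the lowest, namely Slc2a3, Ldhb, Eno2, Pfkfb3, Pgk1 and Gapdh, beside 27.6% of all 11516 genes. At 2-fold or more there were 0 of 34, beside 10.5% of all genes. Neither share was above the background, and the median range of the 34 genes, 1.32-fold, was close to the 1.29-fold of all genes. That background was not matched for level, and it holds genes with few reads, whose ranges counting error widens. Many of the 34 were lowest in the same library: 18 were lowest in library 4, or 52.9%, where 18.2% of all genes were lowest. Library 2 was highest for 12, or 35.3%, and for 15.7% of all genes. That lead depended on the scaling. With DESeq2 size factors, Hk1, Pgk1 and Pkm moved from library 2 to library 1, which was then highest for more of the 34 genes than library 2. Library 3 was above library 4 for 29 of the 34 genes, while 50.3% of all genes were higher in library 3. Libraries 1 and 2 split the genes nearly evenly, with 15 of 34 higher in library 1. Between libraries 4 and 6, 6 of 34 were higher in library 4. Scaling by total counts alone moved the median of all genes by 0.125 on the log2 scale between libraries and left 4 genes at 1.5-fold, since Gapdh, Pgk1 and Pfkfb3 were then under it and Rpe was past it.

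**Figure D2:**
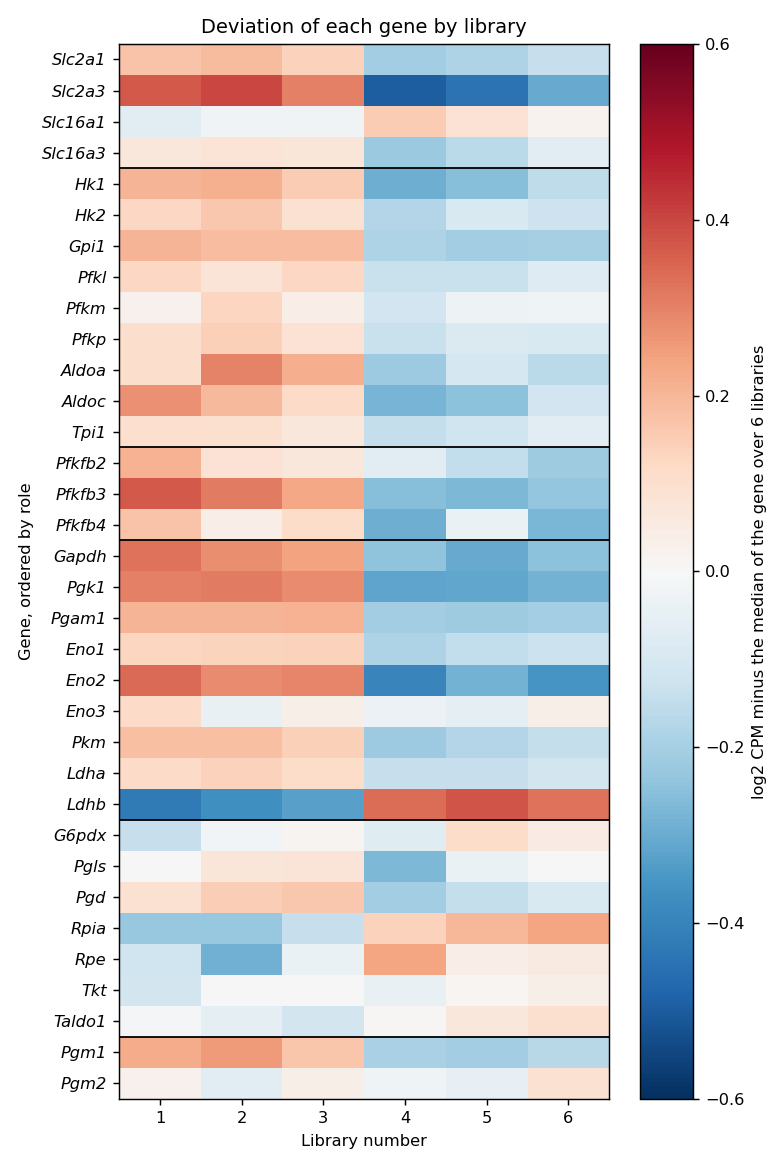
Log2 CPM of each gene minus its own median over the libraries, 1 row per gene grouped by role and 1 column per library, with red for higher and blue for lower. Most rows of glycolysis and transport are red in libraries 1, 2 and 3 and blue in libraries 4, 5 and 6, while rows such as Ldhb and Rpia show the reverse.

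Transport held the gene with the largest range. Slc2a3, the high-affinity glucose transporter GLUT3, stood at 3487, 3574, 3339, 1921, 1987 and 2193 CPM. Libraries 1, 2 and 3 were high and did not overlap the others, and the ratio of highest to lowest was 1.86-fold (95% interval 1.84 to 1.88). Such intervals cover counting error only, since PCR copies without molecular identifiers are not independent molecules. Slc2a1, the transporter GLUT1 that activated T cells induce, moved in the same order between 525 CPM in library 4 and 692 CPM in library 2, 1.32-fold apart. Slc16a3, the lactate exporter MCT4, had 395, 399, 396, 323, 337 and 359 CPM, again with libraries 1 to 3 above the rest. Slc16a1, the lactate and pyruvate transporter MCT1, went the other way, between 92.3 CPM in library 1 and 107 CPM in library 4, 1.16-fold apart.

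The balance within each transporter pair therefore differed between libraries, and such a ratio does not depend on how libraries are scaled, although its size depends on the gene lengths used. Slc2a3 exceeded Slc2a1 in FPKM by 2.29, 2.32, 2.24, 1.64, 1.67 and 1.78 times. Library 2 had 2.32 (95% interval 2.28 to 2.35) and library 4 1.64 (95% interval 1.61 to 1.66). Per length of the longest coding reference transcript, the ratio was between 3.01 and 4.26, and by counts between 3.66 and 5.17. Slc16a3 exceeded Slc16a1 in FPKM by 5.16, 5.05, 5.02, 3.63, 3.96 and 4.42 times. In both pairs the 3 highest ratios were those of libraries 1, 2 and 3.

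Upper glycolysis had 0 of 9 measured genes at 1.5-fold, beside 27.6% of all genes. Hk1, the hexokinase of most tissues, had 662, 667, 639, 469.7, 482 and 517 CPM, a ratio of 1.42-fold (95% interval 1.39 to 1.45), and led its step in FPKM in every library. Hk2, the inducible hexokinase, lay between 476 CPM in library 4 and 601 CPM in library 2, 1.26-fold apart. In CPM, Hk2 was slightly above Hk1 in libraries 4 and 5. Hk1 exceeded Hk2 in FPKM by 1.26, 1.23, 1.24, 1.097, 1.06 and 1.17 times, so that their shares were closer to even in libraries 4, 5 and 6. Hk3 had 5, 6, 3, 18, 12 and 27 reads, or 0.161, 0.173, 0.08604, 0.475, 0.345 and 0.759 CPM, with its fewest reads, in library 3, at the floor and a ratio of 8.82-fold (95% interval 2.72 to 45.4). Gpi1 lay between 1470.0 CPM in library 5 and 1952 CPM in library 1, 1.33-fold apart.

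Phosphofructokinase, the committed step of glycolysis, was mostly the platelet subunit. Pfkp had 1367, 1401, 1349, 1156, 1196 and 1193 CPM, 1.21-fold (95% interval 1.196 to 1.23) from lowest to highest. The liver subunit Pfkl lay between 349 CPM in library 4 and 419 CPM in library 3 and the muscle subunit Pfkm between 52.97 CPM in library 4 and 62.7 CPM in library 2. Their FPKM shares hardly moved: Pfkp held 71.4% to 72.6% of the step, Pfkl 23.0% to 24.4% and Pfkm 4.13% to 4.57%. The 3 subunits thus kept nearly constant proportions although their summed level was higher in libraries 1 to 3.

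Below that step, Aldoc had 130.2, 123, 116, 88.7, 90.6 and 99.3 CPM and lay just short of the 1.5-fold line with 1.47-fold (95% interval 1.403 to 1.54). Aldoa lay between 26.7 CPM in library 4 and 38.2 CPM in library 2, 1.43-fold apart. Tpi1, which interconverts the triose phosphates, was among the steadier genes, between 1479 CPM in library 4 and 1748 CPM in library 1, 1.18-fold apart. All 3 were higher in libraries 1, 2 and 3 than in the others.

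The PFKFB enzymes make and degrade fructose 2,6-bisphosphate, the activator of phosphofructokinase. Pfkfb3, the isoform with the highest kinase activity, made up 84.1% to 87.5% of the FPKM of the 3 genes and stood at 273, 262, 248, 178, 176 and 180.3 CPM. The ratio was 1.55-fold (95% interval 1.502 to 1.605), with libraries 1 to 3 all above the others. Pfkfb2, the heart isoform, lay between 30.8 CPM in library 6 and 41.4 CPM in library 1, 1.34-fold apart. Pfkfb4 lay between 7.65 CPM in library 4 and 10.6 CPM in library 1, 1.38-fold apart.

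Lower glycolysis held 4 of the 6 genes past 1.5-fold, or 44.4% of its 9 genes, beside 27.6% of all genes. This share depended on the scaling. By total counts only Eno2 and Ldhb of these passed, with Gapdh and Pgk1 at 1.42-fold, while 30.7% of all genes passed. Pgk1 had 4731, 4773, 4675, 3081, 3089 and 3154 CPM, a ratio of 1.55-fold (95% interval 1.54 to 1.56). Libraries 1, 2 and 3 lay close together at the top and the others close together below. Gapdh, often used as a reference gene, had 814, 788, 768, 548, 527 and 548 CPM and was just inside the line with 1.55-fold (95% interval 1.52 to 1.58). Eno2, the neuronal enolase, had 35.5, 34.2, 34.3, 21.3, 22.996 and 21.9 CPM, 1.67-fold (95% interval 1.52 to 1.83) from lowest to highest. In all 3 genes libraries 1, 2 and 3 were the high ones.

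Ldhb, the lactate dehydrogenase subunit that predominates in heart, ran against the other genes of lower glycolysis past 1.5-fold. It had 22.4, 23.3, 24.01, 38.02, 39.1 and 37.7 CPM, a ratio of 1.74-fold (95% interval 1.59 to 1.91), with libraries 4, 5 and 6 high and the 3 others low. Ldha had 2778, 2828, 2775, 2330.4, 2330.3 and 2376 CPM and the opposite order, 1.21-fold apart. Ldha exceeded Ldhb in FPKM by 30.2, 29.6, 28.2, 14.96, 14.5 and 15.4 times, and the library intervals of the first 3, the lowest of them 28.2 (95% interval 26.4 to 30.2), did not reach those of the last 3, the highest of them 15.4 (95% interval 14.6 to 16.2). Per length of the reference transcript, which is far shorter for Ldha than the implied length, the ratio was 88.98, 87.1, 83.1, 44.0, 42.8 and 45.2, with the same libraries high.

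The remaining genes of lower glycolysis moved less. Eno1 made up 98.9% to 99.1% of enolase FPKM and had 2694, 2708, 2712, 2173, 2224 and 2259.6 CPM, 1.25-fold apart. Pkm lay between 4249 CPM in library 4 and 5599 CPM in library 2, 1.32-fold apart, and Pgam1 between 512 CPM in library 5 and 684 CPM in library 3, 1.34-fold apart. Eno3, the muscle enolase, was low and nearly level, between 20.03 CPM in library 5 and 22.6 CPM in library 1, 1.13-fold apart. Eno1, Pkm and Pgam1 were again higher in libraries 1, 2 and 3, whereas for Eno3 the highest and lowest library both changed when total counts were used for scaling.

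**Figure D3:**
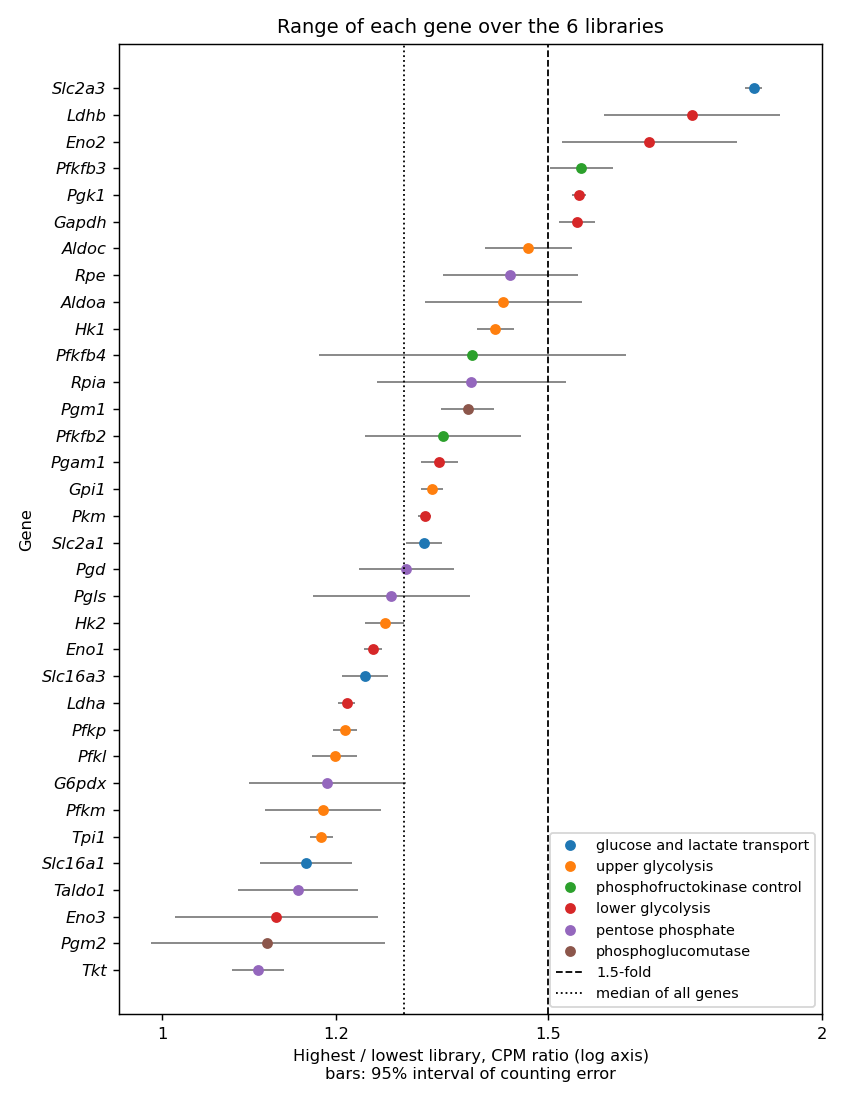
Ratio of the highest to the lowest library for the 34 measured genes, sorted, with 95% counting intervals, and lines at 1.5-fold and at the median of all genes. Slc2a3 is at the top with 1.86-fold and Tkt at the bottom with 1.11-fold.

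Several of these genes have many processed pseudogenes, and how reads matching more than 1 place were counted is not given in the sources used here. At least 25% of the 50-base windows were shared with transcripts of other genes for 8 of the 35: 82.5% for Gapdh, 72.2% for Eno1, 68.0% for Pgk1, 41.5% for Pgam1, 34.4% for Pkm, 27.0% for Ldhb, 25.3% for Gpi1 and 25.1% for Pfkfb2. Eno1b, a near copy of Eno1, had 861 to 1017 reads of its own. The levels of these genes are uncertain to that extent, while 15 genes, among them Slc2a3, Hk2, Aldoc, Tkt, Rpia and Slc16a3, shared 0 windows. Exons overlap a gene on the opposite strand over 17.9% of Rpe (Kansl1l), 13.6% of G6pdx (Ikbkg) and 13.6% of Pgm1 (Itgb3bp). On the same strand, the overlap was 20.6% for Pgls (Fam129c), 17.4% for Pfkfb2 (Gm29427) and 15.3% for Pkm (Gm49759). The strand setting of the counts is not given in the sources used here, so reads of partners on the opposite strand cannot be told apart. Reads of partners on the same strand would not be separated by any strand setting.

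The pentose phosphate genes were lower in FPKM than most glycolytic enzymes, and as a list they did not have the order of glycolysis. Their list level was -0.11, -0.02, 0.00, -0.05, 0.04 and 0.05, a range of 0.16. At 1.5-fold there were 0 of 7 genes, beside 27.6% of all genes. Scaled by total counts, the level ranged by 0.25 and was -0.15, -0.06, -0.03, 0.03, 0.10 and 0.10, with libraries 4, 5 and 6 highest. In the oxidative branch, G6pdx, the entry enzyme glucose 6-phosphate dehydrogenase, lay between 32.3 CPM in library 1 and 38.4 CPM in library 5, 1.19-fold apart. Pgls, the lactonase, lay between 28.1 CPM in library 4 and 35.8 CPM in library 3, 1.27-fold apart. Pgd, 6-phosphogluconate dehydrogenase, lay between 77.6 CPM in library 4 and 100.2 CPM in library 3, 1.29-fold apart. Pgd and Pgls had the order of Eno1, with their 3 highest values in libraries 1, 2 and 3, although for Pgls this did not hold by total counts, and G6pdx had its highest value in library 5.

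In the non-oxidative branch, Rpia, ribose 5-phosphate isomerase, had 19.7, 19.7, 20.99, 25.5, 26.6 and 27.3 CPM, 1.38-fold (95% interval 1.25 to 1.53), and was higher in libraries 4, 5 and 6. Rpe, ribulose phosphate epimerase, lay between 37.03 CPM in library 2 and 53.4 CPM in library 4, 1.44-fold apart, with library 3 at 44.0 CPM close under library 5 at 46.5 CPM. Taldo1, transaldolase, lay between 51.9 CPM in library 3 and 59.9 CPM in library 6, 1.15-fold apart. Tkt, transketolase, was the most abundant gene of the pathway and the steadiest of the 34, with 304, 327, 328, 317, 330.0 and 336 CPM and a ratio of 1.11-fold (95% interval 1.08 to 1.14).

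Set against glycolysis within each library, the pathway shifted more than its own level did. Summed FPKM of the glycolytic enzymes were 8259.5, 8288, 8226, 6772, 6830.3 and 6902, and those of the 7 pentose phosphate genes 236, 245, 249, 257, 269 and 271. The second as a percentage of the first was 2.86, 2.95, 3.03, 3.79, 3.95 and 3.93, highest in libraries 4, 5 and 6 and free of any scaling between libraries. Per length of the reference transcripts it was between 2.197 and 2.99, with the same libraries highest. At the branch point, G6pdx and Gpi1 compete for glucose 6-phosphate. The ratio of G6pdx to Gpi1 was 0.0204, 0.0225, 0.02303, 0.02798, 0.0323 and 0.0307 in FPKM. The ratio of Tkt, of the non-oxidative branch, to Gpi1 was 0.139, 0.152, 0.152, 0.1898, 0.201 and 0.203.

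Phosphoglucomutase links glycogen and glucose 6-phosphate. Pgm1 lay between 248 CPM in library 5 and 341 CPM in library 2, 1.38-fold apart, with libraries 1, 2 and 3 high. Pgm2 lay between 14.2 CPM in library 2 and 15.9 CPM in library 6, and its ratio of 1.12-fold (95% interval 0.988 to 1.26) was within counting error.

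**Figure D4:**
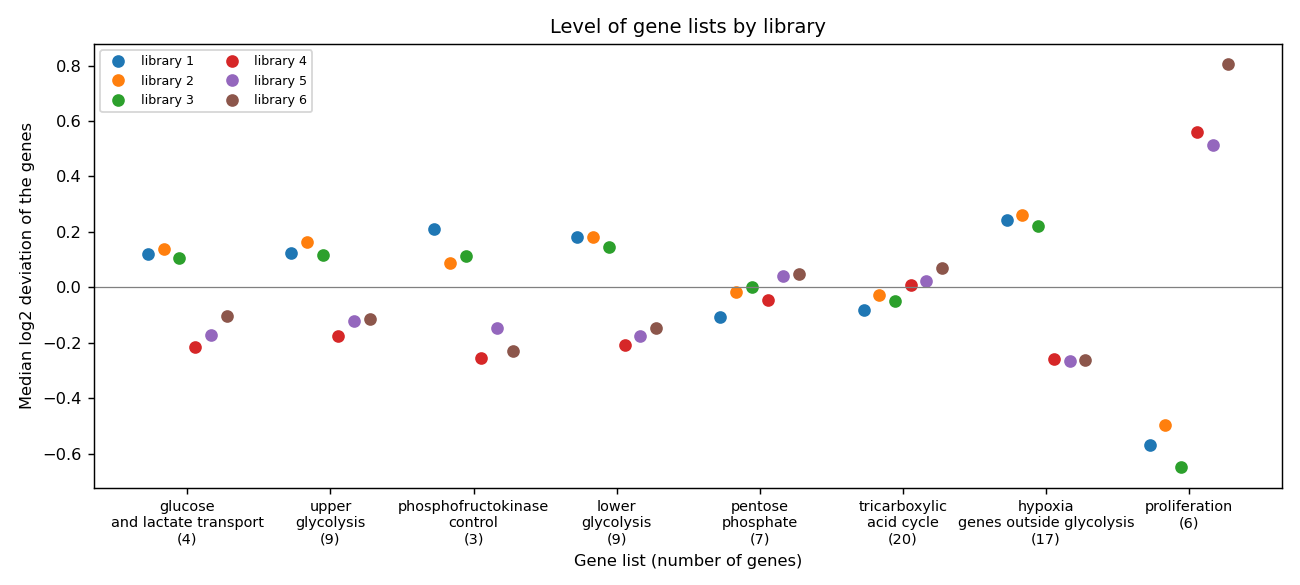
Level in each library of the role groups other than phosphoglucomutase, and of the tricarboxylic acid cycle, hypoxia and proliferation lists. Each level is the median log2 CPM of the genes of a list minus their own medians. Transport and the upper and lower parts of glycolysis lie above 0 in libraries 1 to 3 and below it in libraries 4 to 6, the pentose phosphate and tricarboxylic acid cycle genes stay closer to 0 on this TMM scale, and proliferation runs the other way.

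**Figure D5:**
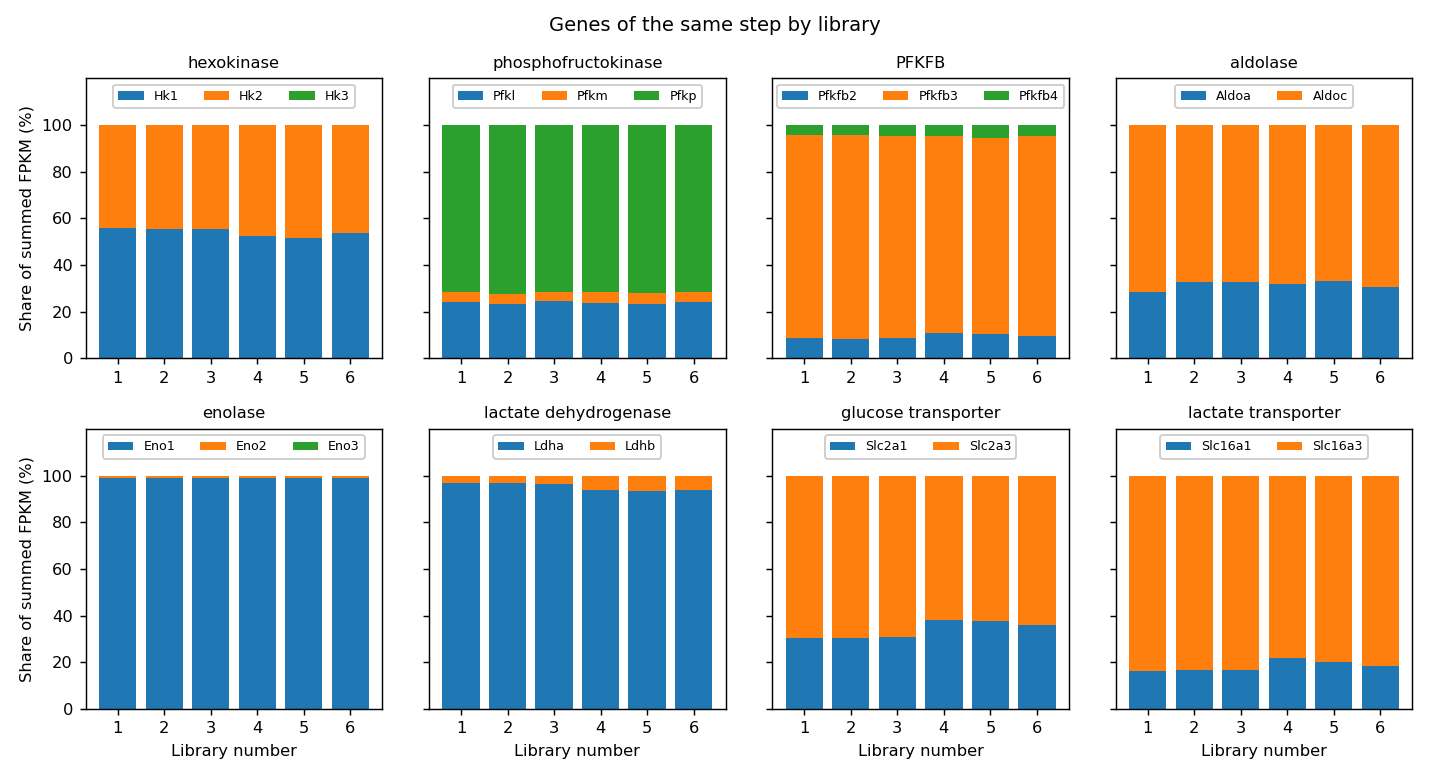
Share of each gene in the summed FPKM of its step, in percent, by library, for the 8 steps with more than 1 gene. The phosphofructokinase and enolase shares are nearly flat, Hk3 and Eno3 are too small to see, while Slc2a3, Slc16a3 and Ldha take larger shares in libraries 1, 2 and 3.

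Promoter sequences are shown because glycolysis genes are textbook targets of the hypoxia factor HIF, whose response element has the core letters ACGTG or GCGTG. RefSeq windows of assembly GRCm38.p6, from 250 bases before to 50 after the start, were given for 34 of the 35 genes, all but Slc2a3. Only the first window listed for each gene was searched, and some genes had more, such as the printed Pfkfb3 with 2. On either strand, 27 of these 34 windows, 79.4%, held ACGTG or GCGTG. The share was 64.4% of the 9164 first windows of genes that averaged 1 CPM or more, and 43.8% of all 27025 first windows. Aldoa, Hk1 and Pkm had no match in the first of their 3, 2 and 2 windows. ACGTG alone was in 47.1% of the 34 and 26.9% of the 9164, and GCGTG in 55.9% and 52.6%. The E-box CACGTG, which contains ACGTG, was in 11.8% and 10.5%. A match describes the letters and is not a binding site. Among genes that averaged 100 CPM or more, the 250 bases before the start are printed for those with the largest and the smallest ranges that had a window, 5′ to 3′ on the gene's strand, with matches to ACGTG or GCGTG on either strand in capitals.
Pfkfb3, chr2:11553930-11554179, minus strand: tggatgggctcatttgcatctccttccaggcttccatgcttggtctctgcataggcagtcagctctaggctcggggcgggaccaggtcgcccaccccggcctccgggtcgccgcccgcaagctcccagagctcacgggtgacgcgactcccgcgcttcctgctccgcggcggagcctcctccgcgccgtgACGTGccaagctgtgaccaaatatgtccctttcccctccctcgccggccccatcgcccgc
Pgk1, chrX:106186850-106187099, plus strand: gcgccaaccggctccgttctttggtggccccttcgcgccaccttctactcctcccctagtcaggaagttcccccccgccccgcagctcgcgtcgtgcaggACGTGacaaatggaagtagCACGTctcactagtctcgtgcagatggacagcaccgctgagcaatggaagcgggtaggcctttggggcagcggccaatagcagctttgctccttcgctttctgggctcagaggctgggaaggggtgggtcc
Tkt, chr14:30548881-30549130, plus strand: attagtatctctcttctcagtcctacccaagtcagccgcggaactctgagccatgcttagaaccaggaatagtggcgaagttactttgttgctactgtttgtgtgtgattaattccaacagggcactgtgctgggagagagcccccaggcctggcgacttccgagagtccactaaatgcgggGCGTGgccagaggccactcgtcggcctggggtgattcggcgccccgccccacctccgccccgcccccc
Tpi1, chr6:124814159-124814408, minus strand: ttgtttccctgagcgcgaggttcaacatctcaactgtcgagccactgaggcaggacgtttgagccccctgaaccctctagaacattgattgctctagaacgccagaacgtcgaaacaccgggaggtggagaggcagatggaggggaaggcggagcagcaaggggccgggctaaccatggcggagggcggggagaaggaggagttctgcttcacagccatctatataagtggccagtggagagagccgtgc
Pfkfb3 and Pgk1, with ratios of 1.55-fold and 1.55-fold, had the match ACGTG 60 bases before the start in Pfkfb3 and 150 and 131 bases before it in Pgk1, the latter on the other strand. Tkt, at 1.11-fold, had GCGTG 68 bases before the start, and Tpi1, at 1.18-fold, had 0 matches. No match says only that these letters are not in this window.

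Other genes of sugar metabolism were read from 9 lists, whose fold ranges are on the log2 CPM scale with a prior count of 2. The share of measured genes past 1.5-fold lay between 10% for the tricarboxylic acid cycle and 57.1% for further sugar and lactate transport. Among all 11516 genes it was 27.6%, and no list was tested against it. Of 13 further glycolysis isoforms, 5 were measured and 2 ranged 1.5-fold or more. Tigar, a phosphatase that lowers fructose 2,6-bisphosphate, was the most abundant at 13.8 to 20.05 CPM, and Pfkfb1, the liver PFKFB, had the largest range with 0.7402, 1.301, 0.6597, 2.03, 1.29 and 2.19 CPM. Of 15 further sugar and lactate transport genes, 7 were measured and 4 passed. Bsg, the chaperone basigin that brings MCT1 and MCT4 to the membrane, was the most abundant with 915, 976, 945, 699.5, 732 and 743 CPM, in the order of Slc16a3. Slc2a6, a lysosomal hexose transporter, had the largest range, 3.29-fold, with 1.61, 1.91, 2.07, 3.09, 4.14 and 5.43 CPM and the reverse order.

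Of 8 further pentose phosphate and ribose genes, 5 were measured and 1 passed, Prps2, a phosphoribosyl pyrophosphate synthetase that was also the most abundant, at 52.5 to 79.7 CPM. Of 8 gluconeogenesis genes, 4 were measured and 2 passed. Pck2, the mitochondrial phosphoenolpyruvate carboxykinase, was the most abundant with 72.5, 79.6, 76.5, 116, 116 and 117 CPM, and Pcx, pyruvate carboxylase, had the largest range with 58.5, 58.3, 50.9, 28.8, 31.3 and 39.6 CPM, in the opposite order. All 19 genes of pyruvate fate were measured and 5 passed. Pdk1, a kinase that inhibits pyruvate dehydrogenase, led with 408, 432, 413, 359, 359 and 369 CPM. Pdk4, a second such kinase, had the largest range, 8.65-fold, at only 3.86, 2.31, 1.84, 0.396, 0.805 and 0.5904 CPM.

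Of 25 genes of side branches from glycolysis, 24 were measured and 5 passed. Psat1, of serine synthesis, was the most abundant with 202, 222, 215, 272, 283 and 293 CPM, higher in libraries 4, 5 and 6 as Ldhb was, and Mpi, mannose phosphate isomerase, had the largest range, 1.84-fold. Of 14 regulators, 13 were measured and 2 passed. Egln3, an oxygen sensor that hydroxylates HIF, was both the most abundant and the widest, with 1326, 1305, 1299.8, 824, 832 and 872 CPM. The other was Hif1a, named after its values were seen, with 955, 899.6, 891, 669, 634 and 662 CPM. Both were high in libraries 1, 2 and 3.

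The tricarboxylic acid cycle and hypoxia genes outside glycolysis differed from each other in spread. Of 20 tricarboxylic acid cycle genes, 2 ranged 1.5-fold or more, and the list level spanned 0.15 on the log2 scale, or 0.29 when scaled by total counts. Cs, citrate synthase, was the most abundant at 272 to 295 CPM, and Suclg2, a succinyl-CoA ligase subunit, had the largest range, 1.84-fold. Of 17 hypoxia genes, 9 passed, or 52.9%, beside 27.6% of all genes, and the list level spanned 0.53. Egln1 and Egln3 are in this list and also among the regulators. Ero1a, an oxidase of the endoplasmic reticulum, was the most abundant at 1901 to 2793 CPM, and Adm, adrenomedullin, had the largest range with 45.4, 50.1, 45.3, 18.8, 18.7 and 19.6 CPM. The level of the 34 glycolysis, transport and pentose phosphate genes ranged by 0.32, between these lists, but scaling by total counts gave 0.20, below the 0.29 of the tricarboxylic acid cycle and the 0.42 of the hypoxia genes.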

How the data were processed

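Total RNA from CD4+ T cells of mice was sequenced in 6 libraries, per the labels. Assembly GRCm39 and the tools DESeq2, fastp, HISAT2, HTSeq and R 3.2.0 are named in the submitters' processing notes, in no order. The sources used here do not give the annotation, the strand setting or further versions. The raw counts and the FPKM values, 1 table each, were used as the authors deposited them. The deposited FPKM equalled count per length and library total within a relative 3.09e-08, so they are a second scaling of the same reads.

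The members and lists were chosen with earlier results of these data known. No groups were formed, no library was averaged with another as a replicate, and no test was made. Counts were scaled with TMM factors from edgeR 4.0.16 in R 4.3.3, from 0.958 to 1.04. Ranges used log2 CPM, a prior count of 2 and genes that averaged 1 CPM or more. Software was Python 3.11.15, pandas 2.3.3, numpy 2.4.6, scipy 1.17.1 and matplotlib 3.10.9. Intervals are exact 95% intervals. Those of highest-to-lowest ratios treat both libraries as fixed, although they were picked from the same values, which pushes the ratios upward. Procedures were tested on simulated data. Every library value is given for members that ranged 1.5-fold or more, for the most abundant isoform of each step and for members under 1 CPM. Of each other list, the most abundant gene and the gene with the largest range are named. Shared sequence and transcript lengths came from a GRCm38 annotation, GENCODE release M21, so no coordinates of the deposited counts are printed. Alternatives were DESeq2 1.42.0 size factors, total counts, TMM without the members, FPKM with a pseudocount of 0.1, a prior count of 0.5, no minimum or one of 5 CPM, each library left out, the mean of members, and isoform shares by counts. Isoform shares per reference transcript length, and ratios between genes by that length or by counts, were added after seeing the data.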

Additional observations from a re-analysis of the deposited data

How the results depend on the processing

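With 6 libraries in no group, only ranges could be described, and counting intervals do not hold the variation between cultures or animals. By total counts the median range of the 34 genes was 0.31 and the range of the list level 0.20 on the log2 scale, and by FPKM they were 0.30 and 0.20, beside 0.40 and 0.32. Genes at 1.5-fold numbered 4 by either, namely Slc2a3, Ldhb, Eno2 and Rpe. DESeq2 size factors, TMM without the members, the prior count of 0.5 and the minimum of 5 CPM left that number at 6. With no minimum it was 7 and 1 gene, Hk3, passed 2-fold. Taking the mean over members gave a list level range of 0.25. Leaving out each library in turn gave between 4 and 6 genes at 1.5-fold, between 0 and 0 at 2-fold, a median range of 0.35 to 0.40 and a list level range of 0.24 to 0.31. The fewest genes, 4, were left without library 1, and 5 without library 5. The highest library of 32 of 34 genes, and the lowest of 29, were unchanged by total counts, the exceptions being Eno3 and Pgls for the highest and Gpi1, Pfkl, Pgam1, Eno3 and Rpia for the lowest. DESeq2 size factors kept the highest library of 27 and the lowest of 32. Per length of the reference transcript, median shares were 78.5% for Slc2a3 against 66.6% by FPKM, 98.3% for Ldha against 95.2%, and 81.2% for Pfkfb3 against 86.2%. By counts without length, Slc2a3 had 81.6%. No paired analysis was possible because the labels put no library in a group.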

Other observations

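The largest gap between neighbouring values divided the libraries of most members in the same place. For 22 of the 34 measured genes, 64.7%, libraries 4, 5 and 6 lay below the gap and libraries 1, 2 and 3 above it, an arrangement that 18.7% of all genes averaging 1 CPM or more had. For 2 genes, Ldhb and Rpia, or 5.88%, it was reversed, as it was for 16.1% of all genes. List levels by library were 0.12, 0.14, 0.11, -0.18, -0.14 and -0.11 on the log2 scale. What sets these libraries apart was not tested, and the labels do not name it.

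A few genes of the side branches from glycolysis, picked after their values were seen and standing for no pathway, had the same division. Phgdh, which takes 3-phosphoglycerate out of glycolysis, had 126, 142, 141, 211, 223 and 224 CPM. Gbe1, the glycogen branching enzyme, had 215, 209, 206, 143, 143 and 146 CPM, and Pygl, a glycogen phosphorylase, 55.8, 53.4, 55.2, 37.6, 36.2 and 36.7 CPM. Other glycogen genes varied less: Pygb, a second glycogen phosphorylase, had 69.5, 65.4, 67.8, 71.9, 71.3 and 75.1 CPM, and Ugp2, Gyg and Gys1 ranged only 1.04-fold, 1.08-fold and 1.11-fold.

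A pair of the members is commonly used for normalising PCR data. Gapdh and Pgk1 had highest libraries 1.55-fold and 1.55-fold above their lowest, at percentiles 75.5 and 75.7 of the same background genes. Other common reference genes, chosen after these values were seen, ranged less: Actb 1.12-fold, B2m 1.09-fold, Hprt 1.17-fold, Ppia 1.14-fold, Tbp 1.13-fold and Ywhaz 1.08-fold. The size of this contrast depends on the TMM scaling. By total counts Gapdh and Pgk1 each ranged 1.42-fold, and the other reference genes were not compared that way. Gapdh and Pgk1 also shared 82.5% and 68.0% of their windows with other transcripts.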
